A study of Homo sapiens with 6 samples.

Results

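The NKX genes described here are 9 human homeobox genes taken by name: NKX2-1, NKX2-2, NKX2-3, NKX2-5, NKX2-6, NKX2-8, NKX3-2, NKX6-1 and NKX6-2. All 9 were found among the 19819 protein-coding genes annotated on chromosomes 1 to 22 and X, and the 5 other NKX genes of that annotation served for comparison. The 9 were chosen with earlier results of these data known, so the choice itself may have shaped the counts below. DNA methylation was read by whole-genome bisulphite sequencing of H9 cells, a widely used line of human embryonic stem cells, with 3 Conventional and 3 Reset libraries. Both groups were grown on mouse embryonic fibroblast feeders. Conventional cells were kept in medium with 10 ng/ml bFGF and 20% KSR, a serum replacement. Reset cells were transfected H9 cells in which doxycycline had induced NANOG and KLF2 transgenes. They were then carried without doxycycline in N2B27 medium with LIF, 1 µM CHIR99021 (a GSK3 inhibitor), 1 µM PD0325901 (a MEK inhibitor) and 5 µM Gö6983 (a protein kinase C inhibitor). Transgenes, medium and passaging differ together between the groups, so their parts cannot be told apart. All libraries come from 1 cell line. The study calls the libraries of a group biological replicates, but the labels do not say how the cultures were separated. P-values therefore rest on the spread between these libraries, with each feature's spread drawn toward that of all features of its kind.

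NKX genes encode transcription factors that bind DNA through a homeodomain and help to set the identity of embryonic cells. NKX2-1 acts in forebrain, lung and thyroid; NKX2-2, NKX6-1 and NKX6-2 act in the ventral neural tube, and the first pair also in the endocrine pancreas. NKX2-5 and NKX2-6 act in heart and pharynx, NKX2-3 in spleen and gut, and NKX3-2 in cartilage and the axial skeleton. Genes of this kind are known to lie in broad, CpG-rich and little methylated stretches of pluripotent cells. No expression was measured here.

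In Reset cells the 9 NKX loci gained methylation while nearly all of the genome lost it. All 9 gene bodies and 6 of 9 promoters were more methylated in Reset than in Conventional libraries, and no body and no promoter was less methylated. Over all coding genes 1.15% of bodies and 3.98% of promoters were higher, and 97.8% and 67.4% lower. Of CpG-dense bodies (GC at least 55%, CpG ratio at least 0.6), the class of 8 of the 9, 25.5% were higher. At 6 of 9 genes the 500 bp that hold the start site made no call. Of the tiles of all coding genes within 0.5 kb of a start, 6.49% were higher and 33.2% lower, so most made no call either. NKX2-5 and NKX2-6, both heart genes, gained methylation across the start itself. The start of NKX6-2 was called higher as well, with groups that overlapped. Stretches that were already methylated in Conventional cells, in the outer flanks of 5 of the genes, fell.

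A set of 4 reference windows of 200 bp shows the kinds of sequence concerned, with every CpG in capitals (GRCh37, minus strand of the chromosome, which is the coding strand of each gene). The first pair is shown because these windows lie just upstream of a start and stayed nearly free of methylation in both groups. NKX3-2 at chr4:13546390-13546589 (26 CpGs) and NKX6-1 at chr4:85420516-85420715 (25 CpGs) reached at most 2.22% and 2.08% in any Reset library. Reset libraries had 10, 16 and 45 calls in the NKX3-2 window and 48, 51 and 21 in that of NKX6-1, so single libraries are thinly read.
NKX3-2 upstream: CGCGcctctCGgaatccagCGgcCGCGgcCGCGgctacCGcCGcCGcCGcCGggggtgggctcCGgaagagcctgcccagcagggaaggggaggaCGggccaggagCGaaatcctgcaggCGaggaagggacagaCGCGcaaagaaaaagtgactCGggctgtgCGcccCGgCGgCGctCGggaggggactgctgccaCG
NKX6-1 upstream: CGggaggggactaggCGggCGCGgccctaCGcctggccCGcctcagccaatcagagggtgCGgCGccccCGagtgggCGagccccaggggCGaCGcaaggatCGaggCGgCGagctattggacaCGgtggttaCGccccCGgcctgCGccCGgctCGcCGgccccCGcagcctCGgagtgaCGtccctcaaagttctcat

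The next window is shown because it was nearly free of methylation in Conventional cells and gained it in Reset cells. It is coding sequence of NKX6-2 at chr10:134599144-134599343 (33 CpGs), in exon 1. Its levels went from 4.55%, 1.49% and 0% (27 to 67 calls a library) to 71.9%, 53.6% and 69.6% (32 to 140 calls). The first pair holds 26 and 25 CpGs. These windows were picked by their levels, so they do not show how CpG density goes with the gain.
NKX6-2 coding: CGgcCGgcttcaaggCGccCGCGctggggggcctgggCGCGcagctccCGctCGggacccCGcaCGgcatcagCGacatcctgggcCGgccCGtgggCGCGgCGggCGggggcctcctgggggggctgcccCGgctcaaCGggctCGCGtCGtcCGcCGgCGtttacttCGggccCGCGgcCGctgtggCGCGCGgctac

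The last window, NKX2-5 at chr5:172662315-172662514, lies within 500 bp upstream of the start of a heart gene. It is shown because its promoter gained methylation and is the least CpG-dense of the 9. It holds 6 CpGs. Its levels were 0%, 0% and 0% in Conventional and 50%, 26.7% and 57.1% in Reset libraries, on 8 to 16 calls a library.
NKX2-5 upstream: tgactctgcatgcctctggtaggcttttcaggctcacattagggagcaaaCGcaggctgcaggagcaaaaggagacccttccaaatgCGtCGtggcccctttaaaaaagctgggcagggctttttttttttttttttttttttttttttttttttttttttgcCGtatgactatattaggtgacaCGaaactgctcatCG

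Libraries held between 70186287 and 97822789 CpG calls, or 2.51 to 3.49 calls for each of 27999103 CpGs, with both strands summed. Single CpGs are therefore thinly read, and levels below are those of whole stretches: the methylated calls in percent of all CpG calls of the stretch. A level of a population can be a share of cells or alleles or a partial level in each, which cannot be told apart. Coverage of the 100 kb around each start, relative to the library mean, gave Reset to Conventional ratios between 0.91 (NKX2-6) and 1.18 (NKX6-2). Defining promoters of pluripotency genes gave Conventional and Reset means of 79.9% and 4.41% (DPPA3), 98.1% and 1.43% (DPPA5), 14.8% and 2.68% (POU5F1) and 6.52% and 3.83% (NANOG). Those of COL1A1 and THY1, taken as fibroblast markers, were 8.59% and 11.8%, and 11.4% and 20.2%. In the promoter test described below THY1 was called higher (adjusted p = 0.02891). COL1A1 (0.2572) and NANOG (0.321) made no call, and DPPA3, DPPA5 and POU5F1 were called lower. Methylation does not measure expression.

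Promoters were taken as 1000 bp upstream to 500 bp downstream of the start. A feature was called where a quasi-binomial model of the calls, with dispersions moderated by limma, gave an adjusted p under 0.05 over all features of its kind. Of 19300 promoters tested, 3.98% were higher and 67.4% lower in Reset libraries, and among 9418 CpG-dense promoters (GC at least 55%, CpG ratio at least 0.6) 5.01% were higher. Of the NKX promoters 8 of 9 are CpG-dense by this measure, 6 were higher and 0 lower. Their median difference was 5.28 points, beside a median fall of all promoters (a difference of -9.59 points).

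The heart genes showed the largest promoter differences of the set. At NKX2-6, on chromosome 8 (minus strand, start at 23564269), the promoter held 1.21%, 0% and 0.356% in Conventional and 55.4%, 63.4% and 51% in Reset libraries. The groups lie far apart, and the rise of 56.1 points (adjusted p = 7.453e-09) was number 3 in size among all 19300 promoters. NKX2-5, on chromosome 5 (minus strand, start at 172662209), held 1.72%, 0.926% and 4.92% against 47.01%, 38.04% and 47.2%. Every Reset library was above every Conventional one, by 41.6 points on average (adjusted p = 3.663e-07), rank 18 by size.

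Of the neural genes, the NKX6-2 promoter (chromosome 10, start at 134599651) rose from 6.76%, 11.8% and 5.91% to 38.5%, 26.2% and 23.1%. The groups did not overlap (difference 21.1 points, adjusted p = 2.952e-05). At NKX6-1 (chromosome 4, start at 85420445) the promoter rose from 0.457%, 0.452% and 0.493% to 3.40%, 4.71% and 5%, a small but separate gain (3.90 points, adjusted p = 0.001879) that was 13.96 points with the promoter extended to 2000 bp upstream. The gain lies upstream of the core: within 500 bp of the start the difference was 0.106 points (adjusted p = 0.8289). NKX2-2 (chromosome 20, start at 21494702) held 1.12%, 0.922% and 1.76% against 2.56%, 0.840% and 1.31%. Its groups overlapped, and the difference of 0.303 points (adjusted p = 0.815) ranged from -0.194 to 0.668 when single libraries were left out.

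NKX2-1 and NKX2-8 neighbour each other on chromosome 14 (starts at 36989437 and 37051819), and their promoters differed. NKX2-8 rose from 4.38%, 7.41% and 3.45% to 22.3%, 32.7% and 21.97%, with no overlap (20.6 points, adjusted p = 1.745e-05). Within 500 bp of the start the difference was 11.3 points (adjusted p = 0.002525). NKX2-1 held 1.63%, 1.46% and 0% against 2.34%, 2.48% and 2.47%. Its Reset values were all above the Conventional ones but the difference of 1.40 points was not called (adjusted p = 0.1678), and was 0.888 points without Conventional replicate 3. With the promoter extended to 2000 bp upstream it was 11.3 points (adjusted p = 2.534e-05), since the gain at NKX2-1 begins farther out.

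The cartilage gene NKX3-2 (chromosome 4, start at 13546132) rose from 1.66%, 1.78% and 1.37% to 2.78%, 11.1% and 5.88%. Reset replicate 2 set much of this difference of 4.99 points (adjusted p = 0.005603): without it the difference was 2.73 points and no call was made (adjusted p = 0.06849). Within 500 bp of the start it was 3.68 points, also not called (adjusted p = 0.06186). NKX2-3 (chromosome 10, plus strand, start at 101292699), the spleen and gut gene, was the most methylated NKX promoter in Conventional cells at 17.2%, 12.3% and 11.9%. Its Reset levels of 15.8%, 16.7% and 24.6% overlapped these, and the difference of 5.28 points was not called (adjusted p = 0.1242). Without Reset replicate 3 it was 2.51 points (adjusted p = 0.4259). It was called with the promoter extended to 2000 bp upstream (9.61 points, adjusted p = 0.001462).

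**Figure D1:**
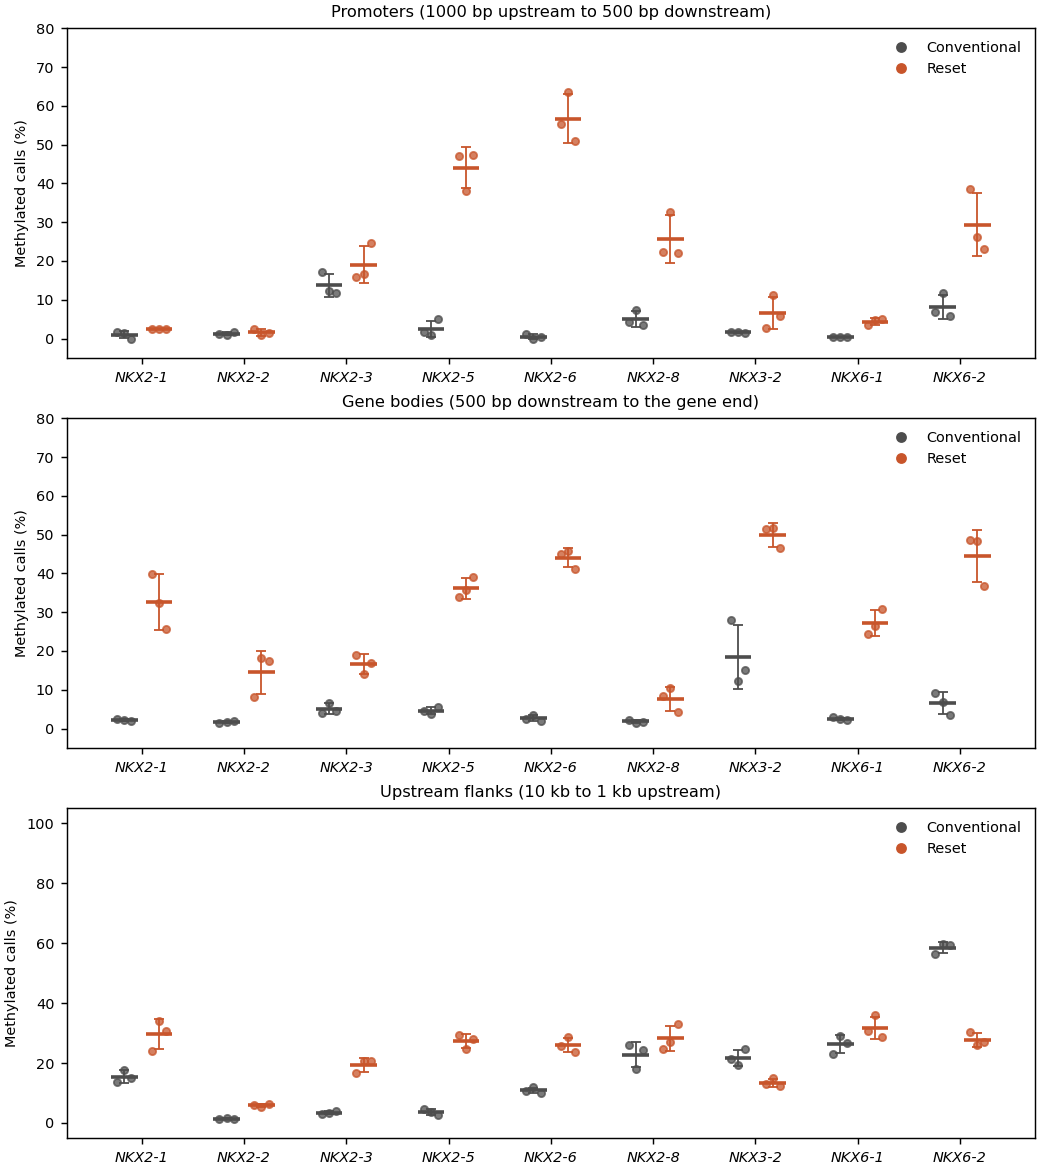
Methylated calls in percent (vertical axes) at the promoter, gene body and upstream flank of the 9 NKX genes. Points are single libraries, thick bars group means and error bars SD (n = 3). All 9 bodies lie higher in Reset libraries; promoters range from a rise of 56.1 points at NKX2-6 to 0.303 points at NKX2-2, and the flanks of NKX3-2 and NKX6-2 lie lower.

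Gene bodies, from 500 bp downstream of the start to the gene end, gave the most uniform result. Of 19153 bodies tested, 97.8% were lower in Reset libraries and 1.15% higher. All 9 NKX bodies were higher. Their median rose from 2.71% to 32.6%, while the median of all bodies fell from 87.5% to 34.0%. Single NKX bodies ended between 7.71% (NKX2-8) and 49.9% (NKX3-2) in Reset libraries. Among 321 CpG-dense bodies, the class of 8 of the 9, 25.5% were higher.

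The body of NKX2-6 rose the most, from 2.71% ± 0.777 (SD, n = 3) to 44.002% ± 2.48 (adjusted p = 7.095e-17), followed by NKX6-2, from 6.54% ± 2.78 to 44.5% ± 6.71 (adjusted p = 9.096e-13). NKX2-5 rose from 4.63% ± 0.840 to 36.2% ± 2.73 and NKX6-1 from 2.52% ± 0.319 to 27.3% ± 3.28. At NKX2-6 the Reset levels were 44.96%, 45.9% and 41.2%. NKX2-1 went from 2.56%, 2.22% and 1.87% to 39.95%, 32.2% and 25.7%, a rise of 30.4 points in a gene whose promoter made no call (adjusted p = 2.42e-13).

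NKX3-2 rose by 31.5 points, from 27.9%, 12.3% and 15.1% to 51.5%, 51.7% and 46.4% (adjusted p = 4.831e-09). Its Conventional libraries were the most methylated and most spread of the set. Rises were smaller at NKX2-2 (12.9 points), NKX2-3 (11.6 points) and NKX2-8 (5.87 points), but none of their Reset libraries fell within the Conventional range. At NKX2-8 the Reset levels of 8.50%, 10.3% and 4.30% stood against 2.15%, 1.55% and 1.81% (adjusted p = 6.506e-05). The rise there lay in the 3′ UTR, from 2.26% ± 1.17 to 16.6% ± 6.17, while the coding sequence held 2.20% ± 1.29 and 1.96% ± 0.745, and the introns 3.005% ± 0.597 and 0.844% ± 1.46.

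Within the genes, the gain differed between exons. Exon 1 and the last exon both had at least 10 calls in every library at 8 genes, and at 5 of these the last exon rose more and at 3 exon 1 did. NKX2-2, for example, had 2.38% ± 2.18 and 0.766% ± 1.33 (Conventional and Reset, SD, n = 3) in exon 1 but 1.46% ± 0.699 and 20.3% ± 10.5 in exon 2. NKX3-2 had 0.954% and 5.23% in exon 1 and 15.8% and 54.1% in exon 2. At NKX2-1 exon 2 went from 1.36% to 8.27% and exon 3 from 2.73% to 46.6%. NKX2-6 and NKX2-5 had the opposite order: exon 1 reached 63.4% ± 17.02 and 40.9% ± 3.71 in Reset libraries, and exon 2 37.3% ± 13.6 and 31.96% ± 0.801. So did NKX6-2, where exon 1 went from 4.74% to 49.99% and the last exon from 7.93% to 41.5%. At NKX6-1 the introns rose from 4.10% ± 0.927 to 52.8% ± 6.82 and exon 2 from 0.952% to 39.3%, beside 6.07% ± 1.1997 in Reset libraries in its last exon. These parts were described and not tested.

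Tiles of 500 bp on a fixed grid, from 10 kb upstream of each start to the gene end, give the shape of the change. Of 258 tiles at the NKX genes, 211 had at least 10 calls in every library: 126 were higher in Reset libraries, 30 lower and 55 made no call. The groups did not overlap in 115 of the 126 higher and 28 of the 30 lower tiles. In the rest a call was made although the libraries overlapped. These tiles had been called on the same libraries, so the lack of overlap adds no separate support. Its share over all tiles of the genome was not counted. Over the genome 0.737% of 1982370 tiles were higher and 95.9% lower, and of 104256 tiles with at least 20 CpGs 8.31% were higher. The directions went with the level in Conventional cells. Of the NKX tiles under 20% there, 120 of 171 rose and 0 fell, and of those at 50% or more 24 of 24 fell. The 16 tiles between these limits went both ways, 6 higher and 6 lower. Among all tiles under 20% in Conventional cells 20.7% rose and 14.2% fell, and of those at 50% or more 99.5% fell.

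The raised NKX tiles had a Conventional median of 2.93% and a Reset median of 38.4%. All genomic tiles of at least 50% in Conventional cells had a Reset median of 33.7%, and 73 of the 126 raised NKX tiles lay at or above it. The 24 methylated NKX tiles fell from a median of 89.9% to 29.5%. The raised tiles were picked for being higher in Reset, which lifts their Reset median and the count of 73. Over all 171 low tiles, called or not, the Reset median was 24.2%, below the 33.7%, and 42 of the 211 tiles were under 5% in Reset cells.

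**Figure D2:**
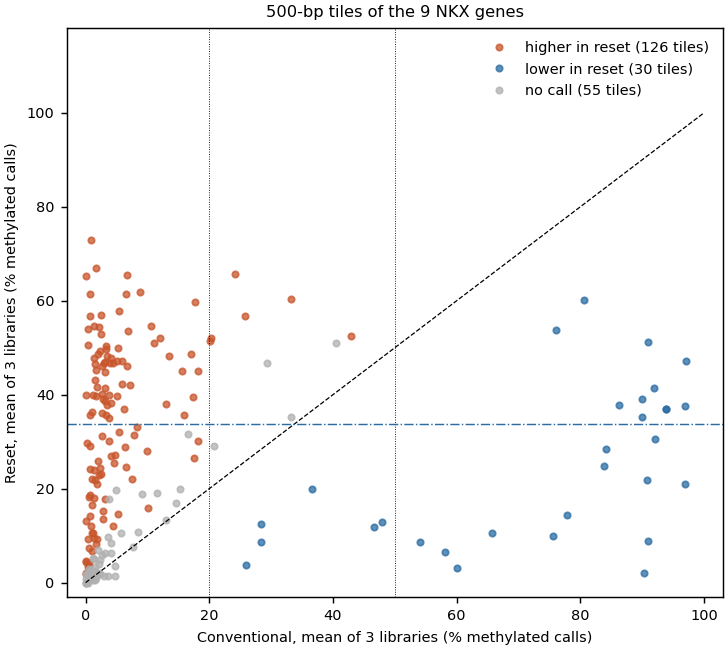
Each point is a 500-bp tile of an NKX gene, by its Conventional (horizontal) and Reset (vertical) level in percent of methylated calls, means of 3 libraries; the dashed line marks equality, dotted lines 20% and 50%, and the blue line the Reset median (33.7%) of all genomic tiles of at least 50% in Conventional cells. Of the raised tiles (126) 120 lie left of the 20% line, and of the fallen tiles (30) 24 lie at 50% or more; 6 of each lie between.

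By distance, a smaller share of tiles rose over the start than on either side of it within 3 kb downstream and 2 kb upstream. Within 0.5 kb of the start 8 of 18 tiles were higher, in 5 genes; between 1.5 and 3 kb downstream 23 of 27 were, in all 9 genes. From 2 to 0.5 kb upstream 19 of 24 were higher. In the same ranges 6.49%, 3.19% and 3.43% of the tiles of all coding genes were higher. Lower were 33.2%, 89.6% and 80.2% of those tiles, beside 0 of the NKX tiles. From 5 to 2 kb upstream 29 of 50 NKX tiles were higher and 6 lower, beside 1.83% and 92.7% of all. Beyond 5 kb upstream 19 tiles, of 4 genes, were higher and 24 lower of 55, beside 1.22% and 94.1% of all. Mean levels rose from 2.19% to 20.7% within 0.5 kb of the start and from 12.3% to 25.3% at 5 to 2 kb upstream, and went from 36.6% to 22.4% beyond, where the medians were 16.6% and 18.3%. The share of low NKX tiles that rose was 80% for tiles with under 10 CpGs and 69.4% for tiles with 40 or more, with the lowest share, 59.5%, at 30 to 39 CpGs. Of all low tiles in these bins 21.7%, 13.6% and 21.3% rose. The Reset median of the low NKX tiles was 33.6% with under 10 CpGs and 12.1% with 40 or more. Over all low tiles it was 7.79% and 1.03%.

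**Figure D3:**
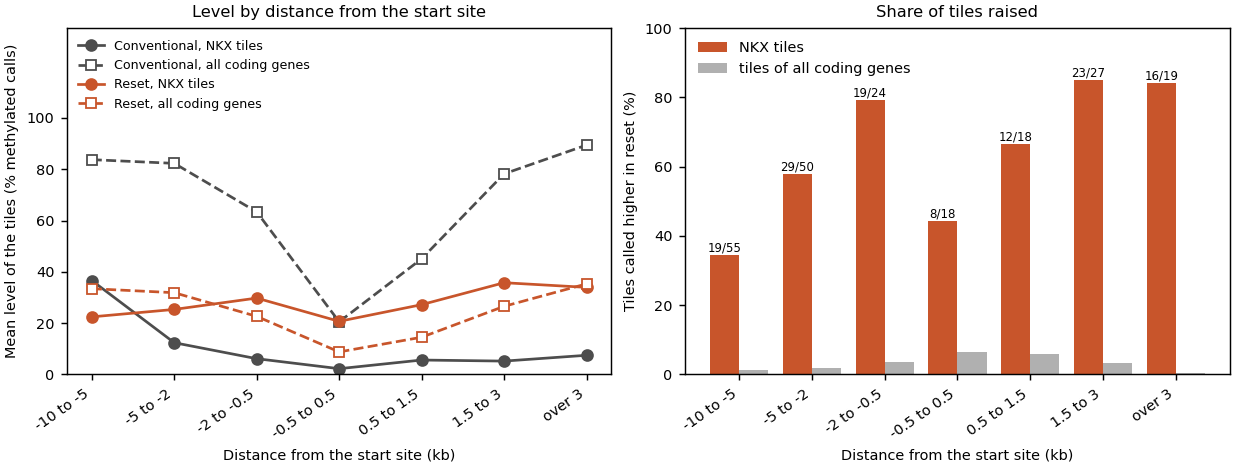
Left, mean tile level in percent of methylated calls by distance from the start site (kb), for NKX tiles (filled) and tiles of all coding genes (open) in Conventional and Reset cells; right, share of tiles called higher in Reset, with counts above the bars. The mean of the NKX tiles is at most 12.3% within 5 kb of the start in Conventional cells, and 8 of 18 tiles within 0.5 kb of the start were called higher, beside 19 of 24 from 2 to 0.5 kb upstream.

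At NKX2-6 20 of 24 tiles were higher and at NKX2-5 23 of 24, with 0 lower at either. The NKX2-6 tile that holds the start went from 0%, 0% and 0.971% to 50%, 60.3% and 51.7% (adjusted p = 5.575e-11), and the next tile upstream from 0% in each library to 56.7%, 70.5% and 68.8% (adjusted p = 2.118e-10). In every Reset library 50% or more of the calls of the start tile were methylated. The NKX2-5 start tile rose from 1.25%, 0% and 8% to 41.9%, 38.3% and 60.5% (adjusted p = 2.059e-07). Its largest rise was at the 3′ end of the gene, in the 3′ UTR and just beyond it (chr5:172659001-172659500), from 4.44%, 4.12% and 11.4% to 71.4%, 61.2% and 63.9% (adjusted p = 1.028e-09).

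NKX6-1 showed the sharpest contrast. Its start tile held 0% in all 6 libraries, where 0 of 129 Reset calls allow a level of up to 2.33% (3 counts, counting error only). An intronic tile 2.69 kb downstream (chr4:85417501-85418000, 29 CpGs) rose from 1.22%, 1.49% and 0% to 68.8%, 83.5% and 66.2% (adjusted p = 5.317e-11), the largest rise of any NKX tile. From 0.81 to 3.81 kb upstream 7 tiles rose as well, one at 2.81 kb from 1.94% ± 1.26 to 48.8% ± 3.62 (SD, n = 3). Farther out 5 tiles that were methylated in Conventional cells fell. The tile at 5.81 kb upstream went from 89.5%, 81.5% and 100% to 0%, 6.25% and 0% (adjusted p = 7.537e-09), with 4 CpGs.

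NKX6-2 lies next to highly methylated sequence. Its 12 methylated tiles, all upstream, fell from a median of 91.4% to 38.5%, the one at 4.10 kb from 89.4%, 90% and 97.1% to 20.9%, 46.9% and 24.1% (adjusted p = 4.244e-08). Of 6 tested tiles downstream of the start 5 were higher. The tile at 0.40 kb, mostly coding, rose from 2.05%, 0.990% and 0.917% to 45.6%, 52.2% and 66.3% (adjusted p = 6.263e-11). The tile at the start was called higher (adjusted p = 0.0142) but its libraries were mixed, at 3.70%, 21.5% and 4.60% against 51.6%, 19.8% and 12.7%. There the groups overlapped.

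NKX2-2 kept the longest low stretch. It had 26 tested tiles, all under 20% in Conventional cells, of which 11 rose and 15 made no call. Some of these rises were near the floor, each from 0% in every Conventional library. At 7.05 and 8.05 kb upstream the Reset levels were 2.08%, 3.26% and 0%, and 6.09%, 0% and 0%, so the groups overlapped. At 3.05 kb upstream they were 2.27%, 4.76% and 6.25%. The larger gains sat in an upstream block, for example 5.05 kb upstream, from 1.82%, 0% and 2.44% to 23.7%, 23.5% and 25% (adjusted p = 6.589e-06), and at the 3′ end of the gene. There the last tile (chr20:21491501-21492000, 3′ UTR) went from 6.12%, 2.78% and 4.60% to 50%, 53.6% and 36.7% (adjusted p = 1.686e-08). Of the 26 tiles 13 were under 5% in Reset cells.

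NKX2-1 rose in 13 of 21 tiles and fell in 2, and NKX2-8 rose in 7 of 18 and fell in 6. The NKX2-1 start tile held 0% in all libraries (0 of 128 Reset calls, which allow up to 2.34%), and higher tiles began 1.31 kb upstream and 1.19 kb downstream. Its largest rise, in the coding part of exon 3, ran from 2.63%, 5% and 0% to 65.3%, 64.9% and 28.5% (adjusted p = 1.602e-07); Reset replicate 3 was the lowest there. At NKX2-8 the gain stopped at the start: the tile 0.43 kb upstream rose from 5%, 3.33% and 3.39% to 48.4%, 56.8% and 34.9% (adjusted p = 8.069e-08), and no tile was called between that one and 2.07 kb downstream. Its largest rise, 1.43 kb upstream, ran from 11.1%, 8.06% and 12.6% to 50.6%, 51.3% and 62.1% (adjusted p = 4.894e-09). Methylated flanking tiles of both genes fell. The NKX2-1 tile 7.31 kb upstream went from 85%, 80.8% and 68% to 13.6%, 18.2% and 11.5% (adjusted p = 1.625e-07), and the NKX2-8 tile 9.93 kb upstream from 76.5%, 78.9% and 71.4% to 8.33%, 14.3% and 7.14% (adjusted p = 2.476e-06). A long annotated transcript, ENSG00000283098, spans both loci, and SFTA3 overlaps NKX2-1, so these tiles belong to more than 1 gene.

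NKX3-2 rose in 9 of 21 tiles and fell in 5. Its start tile held 0.258% ± 0.448 and 0.290% ± 0.502 (SD, n = 3). The mostly coding tile at 2.38 kb downstream went from 0%, 0.971% and 1.35% to 60.6%, 56.8% and 52.6% (adjusted p = 9.446e-11). Its largest fall lay 6.62 kb upstream, in a tile of 3 CpGs, from 95.7%, 95% and 100% to 42.9%, 20% and 0% (adjusted p = 1.083e-06). NKX2-3 rose in 15 of 23 tiles. Its largest rise lay 5.95 kb upstream, within the noncoding gene LINC01475, from 5%, 9.09% and 5.56% to 41.7%, 68.3% and 74.1% (adjusted p = 7.056e-07), while its start tile held 2.27% ± 1.97 and 4.73% ± 4.44.

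**Figure D4:**
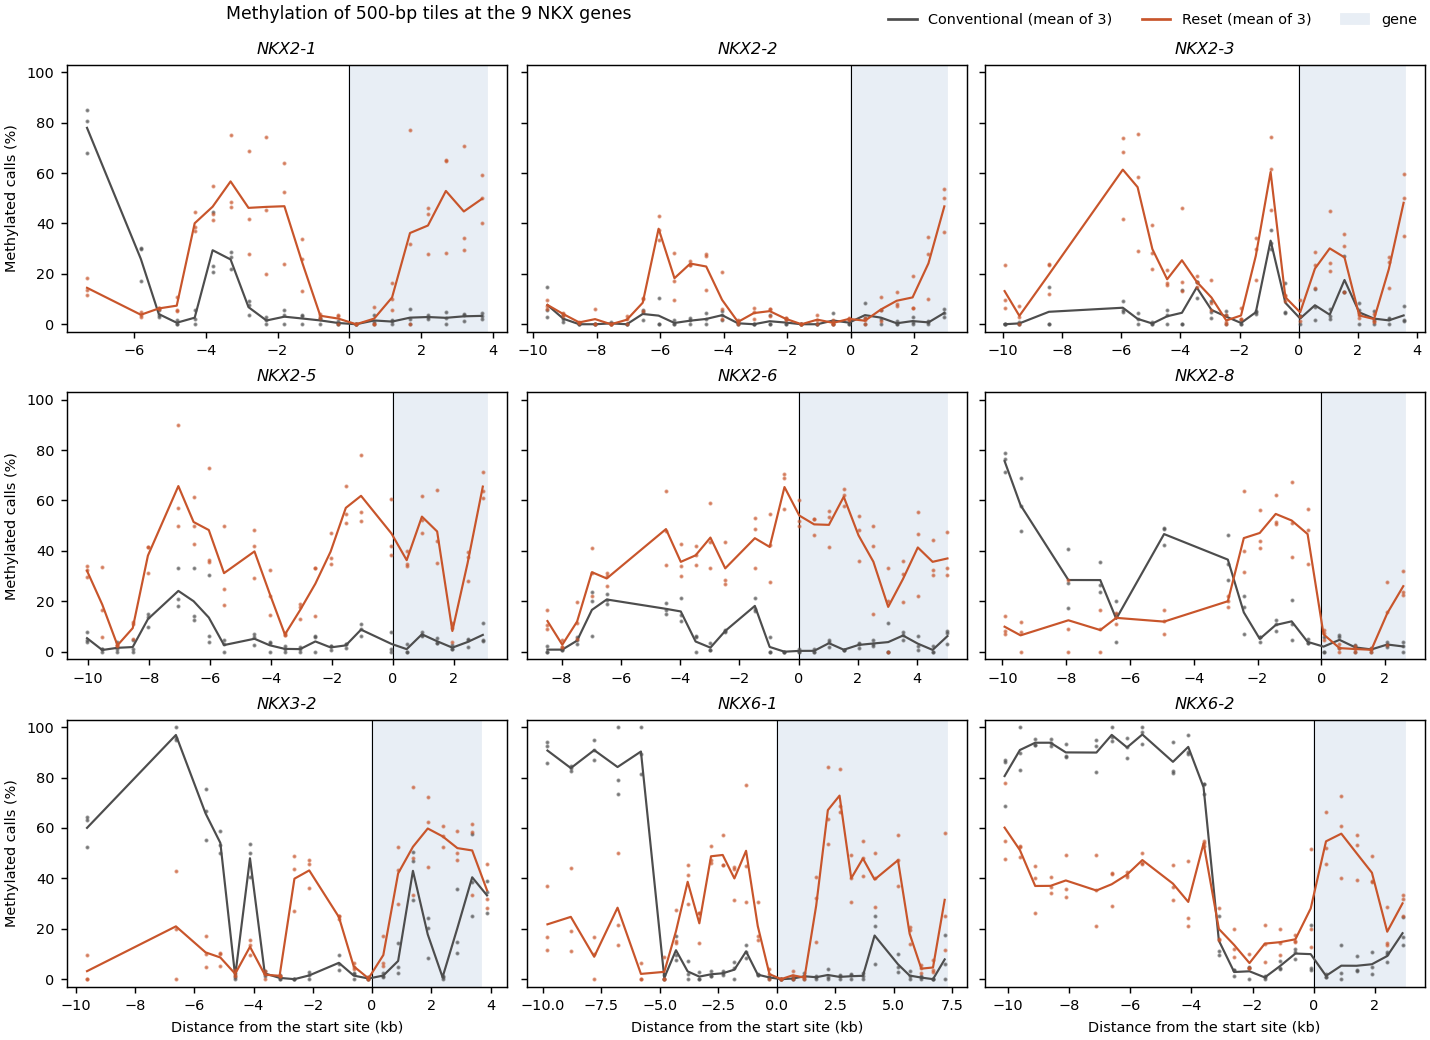
Methylated calls in percent of 500-bp tiles (vertical axes) by distance from the start site in kb along the gene's direction (horizontal axes), for the 9 NKX genes; lines are means of 3 libraries, dots single libraries, and shading marks the gene. Reset cells rise on both sides of a start that stays near 0% at NKX2-1 and NKX6-1, rise across it at NKX2-5 and NKX2-6, and fall in the methylated outer flanks of NKX6-1 and NKX6-2.

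The low stretch around each start, the run of tiles under 20% on calls pooled over the group, was narrower in Reset cells at all 9 genes. Over all genes the opposite held: the median was 1.0 kb in Conventional and 2.5 kb in Reset cells. It went from 19.0 to 6.5 kb at NKX2-2, from 11.5 to 2.5 kb at NKX2-1 and from 9.5 to 2.5 kb at NKX6-1. The NKX2-2 stretch was 19.0, 19.0 and 18.5 kb wide in single Conventional libraries and 7.0, 6.5 and 6.0 kb in Reset libraries. At NKX2-5 (10.0 kb in Conventional cells) and NKX2-6 (7.5 kb) no low stretch was left in any Reset library. NKX6-2 went from 6.5 to 0 kb but depended on the library, with 6.5, 0 and 6.5 kb against 0, 3.5 and 3.5 kb. At NKX3-2 the change was small, from 2.5 to 1.5 kb in every library. With a limit of 30% instead, NKX3-2 had 2.5 kb in both groups, and with 10% NKX6-2 had 0 kb in both. These widths were described and not tested.

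**Figure D5:**
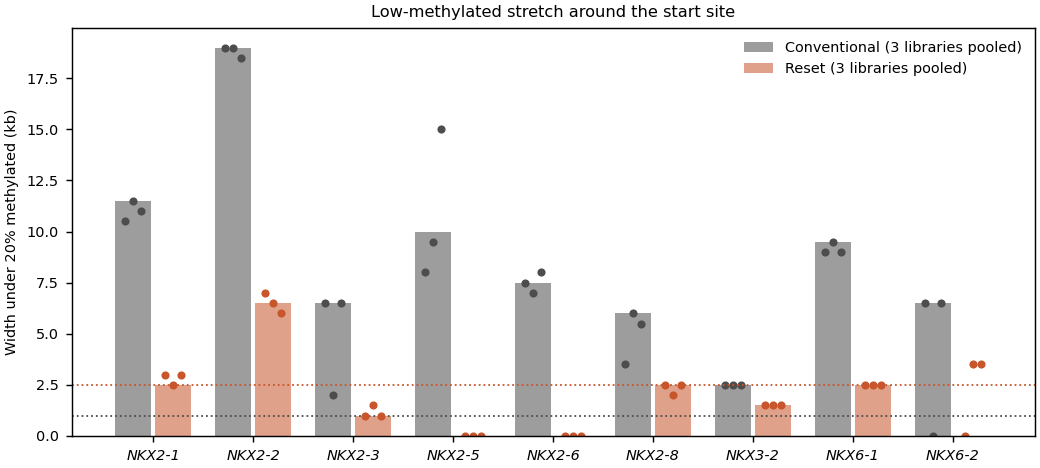
Width in kb of the run of 500-bp tiles under 20% methylated around the start of each NKX gene; bars show calls pooled over the 3 libraries of a group, points single libraries, and dotted lines the median of all coding genes (1.0 kb Conventional, 2.5 kb Reset). Every bar is shorter in Reset, and NKX2-5, NKX2-6 and NKX6-2 have no pooled width left.

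In the upstream flank as a whole, 10 to 1 kb upstream, low and methylated tiles are averaged together. Of 19637 flanks 0.82% were higher and 98.9% lower in Reset libraries; of the NKX flanks 6 were higher and 2 lower. NKX2-5 rose from 3.74% ± 0.983 to 27.3% ± 2.41 (SD, n = 3, adjusted p = 3.803e-14), and NKX2-3, NKX2-6 and NKX2-1 by 16.03, 15.1 and 14.1 points. NKX2-2 rose by 4.46 points from 1.43% ± 0.223. The flank of NKX6-1 was higher by 5.40 points (adjusted p = 0.01295) with overlapping groups, and this call was lost without Conventional replicate 1 (adjusted p = 0.09562) and without Reset replicate 2 (3.33 points, adjusted p = 0.1295). NKX2-8 had the same difference of 5.40 points without a call (adjusted p = 0.05586), and was called without Conventional replicate 1 (adjusted p = 0.01817), Conventional replicate 3 (0.03703) or Reset replicate 1 (0.03208). Its difference dropped to 3.01 points without Conventional replicate 2 (adjusted p = 0.293) and to 3.06 points without Reset replicate 3 (adjusted p = 0.2743). As a mean over single CpGs rather than over calls the differences at NKX6-1 and NKX2-8 were 12.7 and 15.4 points. NKX6-2 fell, from 58.5% ± 1.85 to 27.8% ± 2.30 (adjusted p = 9.957e-14), and NKX3-2 from 21.8% ± 2.62 to 13.4% ± 1.45 (adjusted p = 4.914e-05).

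Of the other NKX genes, 1 of 5 promoters was higher, 1 lower and 3 made no call (3.98% higher and 67.4% lower among all promoters). Of their bodies 1 was higher and 2 lower (1.15% and 97.8% of all), and all 5 flanks were lower, as were 98.9% of all flanks. NKX1-1 was the one with a raised body, from 11.7% ± 1.56 to 43.5% ± 7.60 (SD, n = 3, adjusted p = 3.563e-12). NKX2-4 had a body at 3.66% ± 1.40 and 3.45% ± 1.23 with no call (adjusted p = 0.9448). The difference between the 9 and the 5 was not tested, and the 9 were chosen with earlier results of these data known.

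Genes that act with the NKX factors were examined by list. In the ventral neural tube list 5 of 11 promoters and 5 of 11 bodies were higher, with 0 promoters and 5 bodies lower. Of its flanks 5 were higher and 6 lower. The motor neuron factor OLIG2 rose at its promoter from 1.199% ± 0.233 to 35.9% ± 5.18 (SD, n = 3) and the interneuron factor DBX1 from 1.05% to 38.8%. The bodies of the floor plate genes FOXA2 and SHH, the latter the secreted signal that induces ventral NKX genes, rose from 6.82% to 45.05% and from 12.4% to 30.7%. Their flanks fell, from 42.9% to 18.6% and from 70.4% to 27.6%, and the FOXA2 promoter made no call.

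Of 8 heart genes 4 promoters, 3 bodies and 6 flanks were higher, and 0, 5 and 2 lower. The promoters of the T-box factors TBX5 and TBX20 rose from 2.60% ± 0.758 to 38.4% ± 2.51 and from 1.79% to 23.1%, and that of HAND2 from 1.26% to 15.9%. The bodies of TBX5 and TBX20 fell, from 49.0% to 33.1% and from 69.2% to 28.5%. Their flanks rose, as did the body and flank of HAND2. In the pancreas list 4 of 8 promoters and 4 bodies were higher (1 and 2 lower) but 1 flank (5 lower). NEUROG3, the endocrine progenitor factor, went from 1.14% to 18.2% in its promoter and from 0.431% to 26.6% in its body. Its flank fell from 20.8% to 17.1%. Of the lung and thyroid genes 3 of 9 promoters were higher and 4 lower, with 1 of 9 bodies higher and 6 lower, and all 9 flanks lower. PAX8 was the one promoter that rose by 10 points or more, from 25.9% to 51.01%. The PAX8 body fell from 66.1% to 38.1% and its flank from 83.8% to 33.1%. For cartilage and spleen 3 of 8 promoters and 3 bodies were higher (2 and 5 lower), and 2 flanks (6 lower). BARX1, which acts in the stomach and spleen, rose in its body from 3.39% ± 1.02 to 51.7% ± 3.63. Its promoter made no call and its flank fell from 19.0% to 12.5%. Among all genes 3.98% of promoters, 1.15% of bodies and 0.82% of flanks were higher, and 67.4%, 97.8% and 98.9% lower. The lists are short and were not tested.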

How the data were processed

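Genomic DNA of 6 H9 libraries (3 Conventional, 3 Reset) was sonicated, ligated to methylated adapters, bisulphite-treated and amplified. Per the labels the authors trimmed reads with Trim Galore and mapped them to GRCh37 with Bismark 0.9.0 and Bowtie2; the study's methods name another Bismark version, and removal of duplicate reads is not given in the sources used here. The deposited files list whole-number counts of methylated and unmethylated calls per cytosine and the methylated percent, which equals the ratio of these counts in the deposited tables. Positions were counted from 0, as 99.8% of them then fall on a reference CpG. Counts of both strands were summed per CpG and then per feature on GENCODE v44lift37 canonical transcripts. A quasi-binomial model was fitted to each feature that every library covered by 10 calls or more. Its dispersions were moderated with limma 3.58.1 (R 4.3.3), with a floor of 1. The prior from all features of a kind weighed 9.7 degrees of freedom for promoters, 18.92 for bodies, 15.95 for flanks and 19.51 for tiles. Adjustment of p-values was by Benjamini-Hochberg across each kind of feature. With 3 libraries a group an exact permutation test cannot go below p = 0.1, so none was used. The tests were checked on simulated calls of promoters only, with some low promoters raised and none lowered. Bodies, flanks and tiles were not simulated. Python 3.11.15 with numpy 2.4.6, pandas 2.3.3 and scipy 1.17.1 did the rest. Same-numbered libraries did not deviate together (correlations of 0.00354, 0.0128 and 0.00771 over 16023 promoters). Library totals of 70186287 to 97822789 calls limit precision. P-values cover only the spread between libraries, much of it borrowed from other features through that prior.

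All 9 NKX genes were named by rule, with the tile of the largest called rise and fall of each among tiles without overlap between groups. Genes of the related lists were named where they rose by at least 10 points without overlap, at most 5 a list. NKX1-1, NKX2-4, the exons, start tiles and other tiles described were chosen after their values were seen. Members and lists were chosen with earlier results of these data known. Alternatives were other call minimums, tests, feature bounds, tile grids, leaving out each library or CpGs of high coverage, and the replicate block. Some sequence windows are not reported here.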

Additional observations from a re-analysis of the deposited data

How the results depend on the processing

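The counts at the NKX genes were recomputed under 12 to 14 alternatives each. Bodies stayed at 9 higher and 0 lower under all of them, and promoters at 0 lower. Tiles that were lower numbered 10 of 161 tested where 20 calls were asked of every library (30 in the report), and with tiles of 1000 bp 78 of 127 were higher (126 of the 500-bp tiles in the report); both alternatives test fewer tiles. Without single libraries the tiles numbered 117 to 126 higher and 27 to 32 lower, promoters 5 to 6 higher and flanks 5 to 7 higher. Promoters higher numbered 4 within 500 bp of the start, 8 from 2000 bp upstream and 7 by Fisher's exact test on pooled calls, which ignores the spread between libraries. Among all promoters tested 829 of 18916, 474 of 19485 and 1066 of 19300 were higher in these settings. The shared replicate numbers did not pair the libraries; with the replicate block 6 promoters, 9 bodies, 7 flanks and 113 tiles were higher and 0, 0, 2 and 26 lower, the added flank being that of NKX2-8 (adjusted p = 0.04026). Over all genes that block gave 726 of 19300 promoters and 219 of 19153 bodies higher, and 12855 and 18728 lower. Limma on logit levels lost the NKX6-1 flank (adjusted p = 0.0825). Single-CpG means moved 8 differences of 27 by more than the spread between libraries and reversed no called one. The width of the low stretch depends on its limit at most genes, for NKX2-1 in Conventional cells 7.0 kb under 10% and 14.5 kb under 30%. At 2.51 to 3.49 calls a CpG, single CpGs are thinly read, and 47 of 258 tiles, with under 10 calls in a library, were not tested.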
